A study of Mus musculus with 2 samples.

Results

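Wnt2-positive, Barx1-negative cells of the posterior and middle second heart field at embryonic day (E) 9.5 are described here. They were chosen from the E9.5 matrix as cells of the middle or posterior library with 3 or more UMIs of Wnt2 and 0 UMIs of Barx1, a UMI (unique molecular identifier) being 1 counted RNA molecule. Of the 479 cells of these 2 libraries, 138 met the rule, which is 28.8% (24.8 to 33.1%, exact Clopper-Pearson 95% interval). The rule took 126 of 418 posterior cells (30.1%) and 12 of 61 middle cells (19.7%). They are called the Wnt2 cells. The cells they were set against were the other 206 cells of both libraries with 2 or more Foxf1 UMIs, called the other Foxf1 cells, of which 113 held Barx1 and 93 did not. The 135 cells that remained entered neither set.

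The study took second heart field tissue from wild-type mice at E9.5 and E10.5, minced it, dissociated it with trypsin and loaded it on the 10x Genomics Chromium system. The cells are labelled Osr1-positive, and a suffix on each barcode gives the dissected position. There was 1 sample per stage, holding 533 cells at E9.5 and 1500 cells over both stages, and the labels do not say how many embryos were pooled. No allele, transgene or treatment is named for any group. Cells of 1 sample are not replicates, so no test was made. Each ratio below is a ratio of summed counts, scaled to the total of each set (CPM), with an exact Poisson 95% interval, and every interval covers counting error only.

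The second heart field is the mesoderm behind the heart tube that adds cells to both of its ends. In its posterior part, mesoderm that gives rise to the inflow tract and atria lies against the foregut mesoderm of the future lung, oesophagus and stomach. Wnt2 encodes a secreted Wnt ligand known from lung mesenchyme, the cardiac inflow region and the progenitors the heart and lung share. Foxf1 encodes a forkhead factor of splanchnic mesoderm that answers to Hedgehog from the foregut endoderm. Barx1 encodes a homeodomain factor of stomach mesenchyme.

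Wnt2 (chromosome 6, 17988940 to 18030585, minus strand, GRCm38) was at 3 UMIs in the lowest Wnt2 cell, 10 in the median cell and 45 in the highest. Among the other Foxf1 cells it was at 0 in 118 of 206 cells, and the highest had 39 UMIs. In summed counts Wnt2 was at 330 CPM in the Wnt2 cells and 57.1 CPM in the other Foxf1 cells. These values chose the cells and are given only as a description. None of the 54 anterior E9.5 cells had a Wnt2 UMI, at their median depth of 23028 UMIs. This allows a share of cells with a UMI of up to about 5.56%, taken as 3 divided by 54 and not as an exact interval.

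The label given to these cells, cardiopulmonary mesenchyme, names Wnt2 and Foxf1 as its markers, and only the first was met throughout. Foxf1 (chromosome 8, 121084386 to 121088144, plus strand) was at 0 UMIs in 56 of the 138 Wnt2 cells, at 1 UMI in 15 and at 2 or more in 67, which is 48.6% (40.0 to 57.2%). The median Wnt2 cell had 1 Foxf1 UMI and the highest had 34. The other Foxf1 cells ran from 2 UMIs to 41 with a median of 11, their lowest value being set by the rule. The 67 Wnt2 cells with Foxf1 had a median of 7. Wnt2 itself had a median of 11 UMIs in those 67 cells and 9 in the 71 cells with 0 or 1 Foxf1 UMI, so the level of Wnt2 did not separate the Wnt2 cells by Foxf1. Over 135 Wnt2 cells thinned to 10000 UMIs the rank correlation of both genes was 0.061.

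Because the other Foxf1 cells were required to have Foxf1 and the Wnt2 cells were not, comparisons were made both for all 138 Wnt2 cells and for the 67 with 2 or more Foxf1 UMIs, and each value names its set. Both use the same 206 cells on the other side. Osr1, the gene by which all cells were labelled, had a UMI in every cell. Its median was 3 UMIs in the Wnt2 cells, 7 in those with Foxf1, 1 in those with 0 or 1 Foxf1 UMI, and 4 in the other Foxf1 cells.

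**Figure D1:**
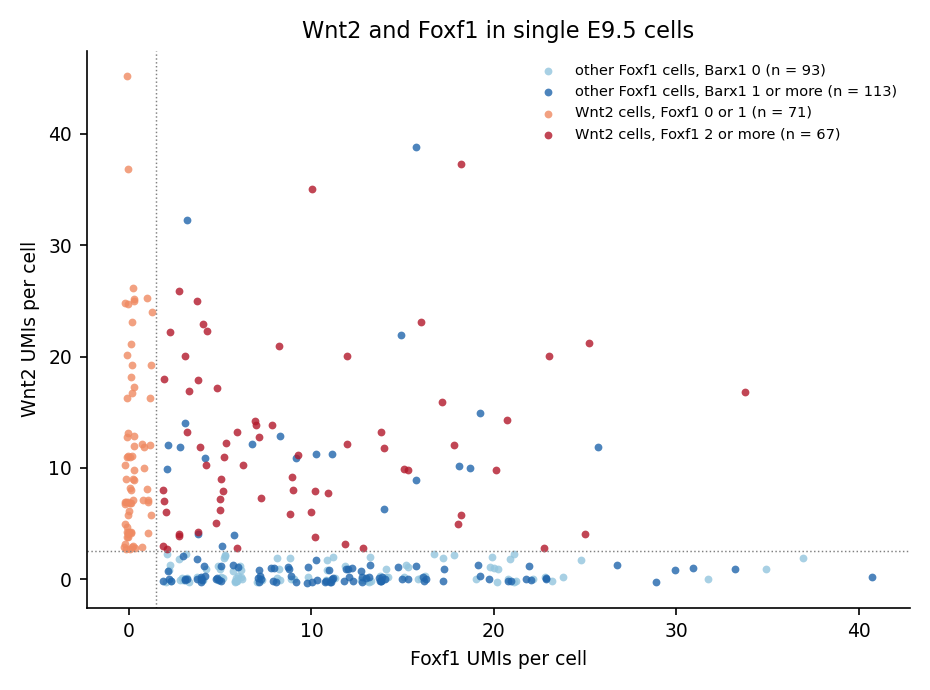
Wnt2 UMIs (vertical axis) against Foxf1 UMIs (horizontal axis) in the 138 Wnt2 cells and the 206 other Foxf1 cells of the middle and posterior E9.5 libraries. Each point is 1 cell with small random offsets, coloured by set, and the remaining cells are not drawn. Dotted lines mark the thresholds of 3 Wnt2 UMIs and 2 Foxf1 UMIs. The Wnt2 cells lie on both sides of the Foxf1 line, 71 to its left and 67 to its right.

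Median depth was close in both sets, at 33445 UMIs per Wnt2 cell and 30216.5 per other Foxf1 cell, with totals of 4930221 and 6502496 UMIs. Mitochondrial transcripts took 2.00% and 2.04% of the UMIs in the median cells. Epcam, an epithelial adhesion gene, had 2 or more UMIs in 4 Wnt2 cells and 10 other Foxf1 cells, and an endothelial gene (Pecam1 or Cdh5) in 4 and 5. Myh6, the atrial myosin heavy chain, had 2 or more UMIs in 20 Wnt2 cells and 1 other Foxf1 cell. Scrublet marked 6 of the 479 cells as doublets, 1 of them a Wnt2 cell. They were kept. No barcode was shared between libraries.

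At the threshold, 14 Wnt2 cells had exactly 3 Wnt2 UMIs, 6 of them with 2 or more Foxf1 UMIs, and 27 cells without Barx1 had exactly 2, of which 19 were other Foxf1 cells. Ccnd2 was at 298 CPM just inside and 457 CPM just outside, Ifitm1 at 77.7 and 141 CPM, and Nkx2-5 at 184 and 28.4 CPM. Another 37 cells had 3 or more Wnt2 UMIs but were kept out by Barx1, 23 of them by a single UMI. Their Ccnd2 level was 242 CPM and their Nkx2-5 level 133 CPM, and 22 of them were other Foxf1 cells.

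Some of the Wnt2 cells carried many transcripts of the contractile apparatus of heart muscle. The 18 listed cardiac sarcomere genes took 0.0188% of the UMIs in the lowest Wnt2 cell, 0.0853% in the median cell and 7.90% in the highest, against 0.0090%, 0.0605% and 0.566% in the other Foxf1 cells. With a line drawn at 0.3%, which was placed after seeing the data, 36 of 138 Wnt2 cells lay at or above it (26.1%, 18.99 to 34.2%) and 6 of 206 other Foxf1 cells did. The share is a range and not a class: 16 Wnt2 cells lay between 0.2% and 0.4%, and 23 were at 1% or more. By Foxf1, 27 of 71 Wnt2 cells with 0 or 1 UMI were at or above the line (38.0%, 26.8 to 50.3%) and 9 of 67 with 2 or more (13.4%, 6.33 to 24.0%). All 36 were posterior cells.

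**Figure D2:**
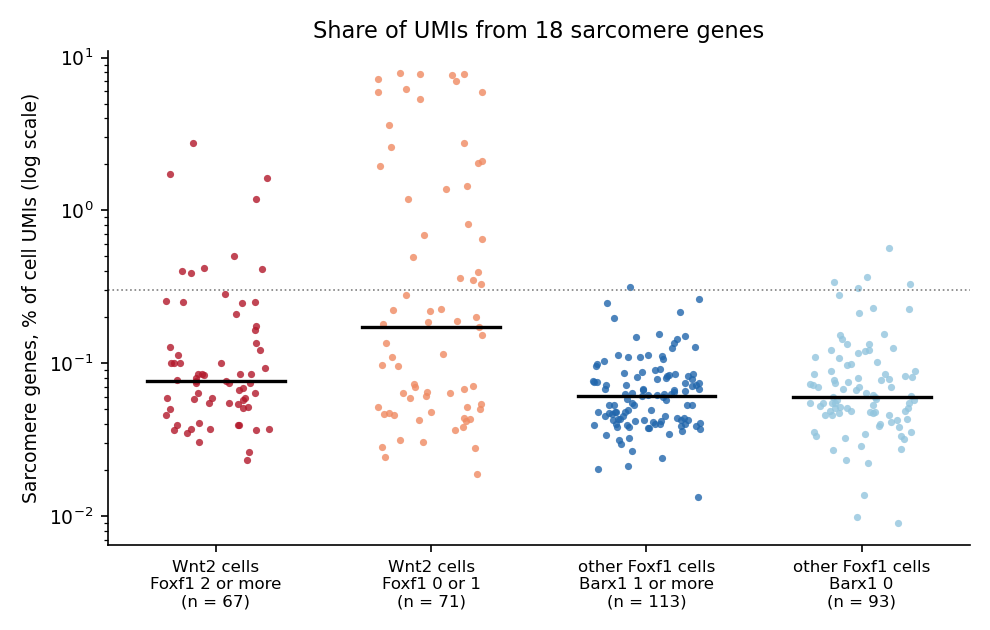
Share of each cell's UMIs that came from 18 cardiac sarcomere genes, in percent on a log axis. The columns are Wnt2 cells with 2 or more Foxf1 UMIs, Wnt2 cells with 0 or 1, and the other Foxf1 cells with Barx1 and without it. The remaining middle and posterior cells are not drawn. Black bars are medians and the dotted line is 0.3%. The upper tail reaches 7.90% in Wnt2 cells with 0 or 1 Foxf1 UMI and 0.566% in the other Foxf1 cells.

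Actc1, cardiac alpha-actin, shows how unevenly these transcripts were spread. It was at 1 UMI in the median Wnt2 cell and 1323 in the highest, and 5 cells held 50% of its counts. Its summed level was 1628 CPM in the Wnt2 cells and 35.5 CPM in the other Foxf1 cells, 45.8-fold higher (40.2 to 52.4). In the Wnt2 cells with Foxf1 the ratio was 7.52 (6.47 to 8.77), and without cells at or above the 0.3% line it was 0.802 (0.584 to 1.09). Acta2, the smooth muscle actin that early heart muscle also uses, was at 954 and 45.7 CPM, 20.9-fold higher (18.6 to 23.6), and stayed 5.22-fold higher (4.30 to 6.36) in the 58 Wnt2 cells with Foxf1 and under 0.3% sarcomere transcripts. Csrp3, a muscle LIM protein gene, went the way of Actc1, with ratios of 51.3 in all Wnt2 cells, 10.6 in those with Foxf1 and 0.846 once the cells at or above the line were left out.

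Of the 9499 genes with at least 50 counts and a UMI in at least 10% of either set's cells, 360 (3.79%) were at least 2-fold higher in the Wnt2 cells and 99 (1.04%) at least 2-fold lower. In the 67 Wnt2 cells with Foxf1 the same rule gave 156 higher genes (1.75% of 8938) and 106 lower (1.19%). Without cells at or above the sarcomere line it gave 111 higher (1.27% of 8743) and 103 lower (1.18%). Of the lower genes, 52 were in both of the first 2 comparisons, which is 52.5% of the 99 and 49.1% of the 106, and of the higher genes 122, which is 33.9% of the 360 and 78.2% of the 156.

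Among the 15 genes with the highest ratios in all 138 Wnt2 cells and 1 direction in both libraries, 3 (Tnni3, Cnn1 and Myl9) were on the sarcomere or smooth muscle lists. That filter, which also asks for an interval without 1, kept 157 of the 360 higher genes. It left out Actc1, which had 0 counts in the middle Wnt2 cells. The 15 included Hspb1, a small heat shock protein of muscle (151 against 2.92 CPM, 51.8-fold), the troponin gene Tnni3 (116 against 6.77 CPM, 17.2-fold) and the calponin gene Cnn1 (71.6 against 5.38 CPM, 13.3-fold). Tnni3 was 1.29-fold and Cnn1 3.92-fold in the Wnt2 cells with Foxf1. Cck, which encodes the peptide cholecystokinin, was 14.7-fold higher, but had 0 counts in the 58 Wnt2 cells with Foxf1 and little sarcomere RNA. Of its counts in the Wnt2 cells 1 cell held 36.7%, and the Cck ratio without that cell was 9.34. Myl9, a regulatory myosin light chain, was at 318 against 38.6 CPM (8.23, 7.20 to 9.45) and at 74.0 against 38.6 CPM in those with Foxf1 (1.92, 1.58 to 2.33).

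Other genes of this group did not follow the sarcomere genes. Atp1b1, the beta subunit of the sodium-potassium pump, was at 113 against 10.1 CPM, 11.2-fold higher (8.63 to 14.6). It was 7.37-fold higher in the Wnt2 cells with Foxf1 and 3.15-fold higher (2.19 to 4.55) in the 58. Tbx18, a T-box factor of the sinus venosus and proepicardium, was at 52.7 against 7.997 CPM, 6.59-fold higher (4.88 to 9.06). Msx2, a homeobox gene that BMP signals switch on, was at 31.6 against 4.31 CPM, 7.35-fold higher (4.89 to 11.4).

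The leading genes of the Wnt2 cells with Foxf1 passed a weaker filter, since the middle library held only 4 of these cells and was not used. All 156 higher genes passed it, so both groups of leading genes are not directly comparable. Sfrp5, a secreted Wnt antagonist of the venous pole, was at 78.3 against 6.77 CPM, 11.6-fold higher (8.31 to 16.4), and 9.87-fold (6.63 to 15.03) in the 58. It was unevenly spread: the median cell had 0 UMIs, the highest 40, and 4 of the 67 cells held 50% of the counts. After thinning every cell to 10000 UMIs, Sfrp5 had a UMI in 28.4% of Wnt2 cells with Foxf1 (18.01 to 40.7%) and 3.55% of other Foxf1 cells (1.44 to 7.18%). Unthinned, the shares were 43.3% and 10.7%. The Epcam-positive cells had it in 28.9% when thinned, so epithelial cells of these libraries are no measure of background for Sfrp5. Thinning left out 3 Wnt2 cells, 9 other Foxf1 cells and 4 of 80 Epcam-positive cells.

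Nkx2-5, a homeobox gene of cardiac progenitors, was at 131 CPM in the Wnt2 cells with Foxf1 and 19.1 CPM in the other Foxf1 cells, 6.88-fold higher (5.58 to 8.53). In all Wnt2 cells it was at 170 CPM, and in the 58 at 61.1 against 12.5 CPM, 4.87-fold higher (3.65 to 6.53). The median Wnt2 cell with Foxf1 had 1 UMI, the highest had 44, and 6 of the 67 cells held 50% of the counts. Thinned, 41.8% of these cells (29.8 to 54.5%) had an Nkx2-5 UMI against 11.2% of the other Foxf1 cells (7.13 to 16.4%) and 11.8% of the Epcam-positive cells, whose median depth was 31701 UMIs. Unthinned the 3 shares were 53.7%, 17.5% and 18.8%. The other Foxf1 cells were thus at the level of the Epcam-positive cells, and the Wnt2 cells with Foxf1 lay above both. The first 2 sets share 10 cells, the other Foxf1 cells with 2 or more Epcam UMIs.

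**Figure D3:**
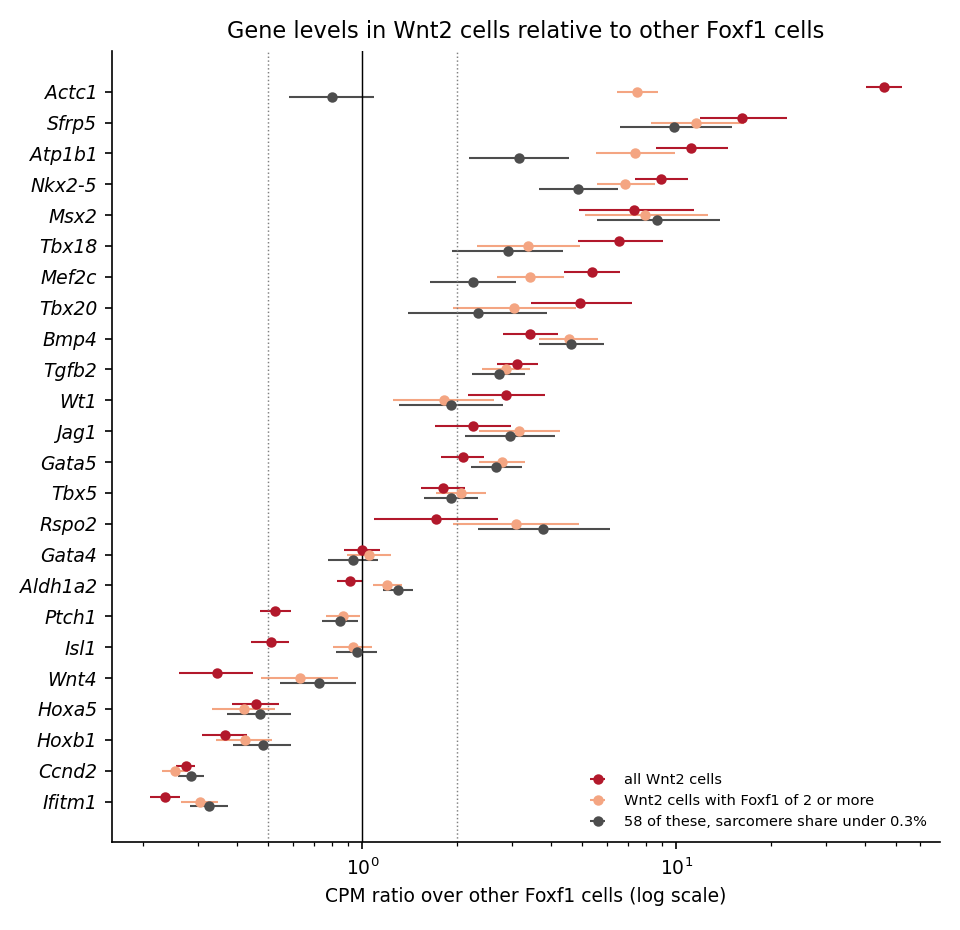
CPM ratio, on a log axis, of 24 genes in the Wnt2 cells over the 206 other Foxf1 cells, for all 138 Wnt2 cells, the 67 with 2 or more Foxf1 UMIs and the 58 of these under 0.3% sarcomere transcripts (set against the 200 other Foxf1 cells under that line); bars are 95% Poisson intervals and dotted lines mark ratios of 0.5 and 2. Actc1 moves from 45.8 to 0.802 across the 3 sets, while Sfrp5, Nkx2-5 and Bmp4 stay above 2 and Ccnd2 stays below 0.5 in each.

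Some of the largest ratios in the Wnt2 cells with Foxf1 came from single cells. Slc2a3, a glucose transporter gene, was 13.9-fold higher, but 1 cell held 85.4% of its counts and the ratio without that cell was 2.11. Cryab, a small heat shock protein, had 51.0% of its counts in 1 cell, and its ratio went from 15.6 to 7.99 without it. For Ahnak, a large scaffold protein, the ratio went from 8.70 to 3.35, and for Msx2 from 7.94 to 5.49. Over the 156 higher genes, 100 (64.1%) were still at least 2-fold higher when the cell with the most counts of that gene was left out. Over the 106 lower genes, 85 (80.2%) were still at least 2-fold lower when the other Foxf1 cell with the most counts was left out.

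A pair of posterior Wnt2 cells accounted for much of this. They had 91 and 86 UMIs of Hand1, a bHLH factor of early heart and lateral mesoderm, where the next Wnt2 cell had 17, and they held 45474 and 104458 UMIs in all. The first also had 103 Postn and 98 Col1a1 UMIs, both matrix genes, and the second 252 Slc2a3 and 248 Igfbp2 UMIs. They held 30% or more of the counts of 12 and 13 of the 156 higher genes. Scrublet marked neither. Without these 2 cells 118 genes were higher and 126 lower of 8883, an alternative added after seeing the data.

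Promoters of 4 genes are shown. Wnt2 chose the cells, and the other 3, all muscle or lipid storage genes, were among the 15 highest in the Wnt2 cells with Foxf1. These 3 do not stand for the 15: they are from the 4 of 12 matched genes that held the T-box letters marked below. Each runs from 250 bases before to 50 after a RefSeq transcript start (GRCm38.p6), written 5′ to 3′ on the gene's strand. Capitals mark the letters AGGTGT, the core of the T-box motif, or ACACCT, the same motif on the other strand. The Wnt2 window is chr6:18030396-18030695 (minus strand), 1 of 2 RefSeq windows of Csrp3 is chr7:48843622-48843921 (minus), that of Fitm1, a lipid droplet gene, chr14:55575424-55575723 (plus) and that of Unc45b, a myosin chaperone gene, chr11:82911003-82911302 (plus).
Wnt2: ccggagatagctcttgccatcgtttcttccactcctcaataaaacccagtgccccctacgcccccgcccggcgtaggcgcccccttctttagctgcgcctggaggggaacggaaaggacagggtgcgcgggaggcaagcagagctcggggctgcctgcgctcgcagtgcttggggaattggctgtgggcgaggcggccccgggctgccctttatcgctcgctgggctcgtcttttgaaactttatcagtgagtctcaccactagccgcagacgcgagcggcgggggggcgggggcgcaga
Csrp3: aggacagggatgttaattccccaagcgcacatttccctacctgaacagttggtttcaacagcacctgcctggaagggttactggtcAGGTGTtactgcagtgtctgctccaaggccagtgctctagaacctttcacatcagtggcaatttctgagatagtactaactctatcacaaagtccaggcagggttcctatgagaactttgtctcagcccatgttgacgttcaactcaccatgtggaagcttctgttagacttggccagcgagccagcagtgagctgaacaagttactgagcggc
Fitm1: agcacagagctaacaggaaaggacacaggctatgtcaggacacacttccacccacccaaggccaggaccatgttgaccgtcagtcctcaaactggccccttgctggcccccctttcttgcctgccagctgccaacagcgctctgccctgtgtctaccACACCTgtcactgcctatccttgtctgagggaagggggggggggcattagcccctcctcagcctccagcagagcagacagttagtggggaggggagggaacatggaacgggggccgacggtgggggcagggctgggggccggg
Unc45b: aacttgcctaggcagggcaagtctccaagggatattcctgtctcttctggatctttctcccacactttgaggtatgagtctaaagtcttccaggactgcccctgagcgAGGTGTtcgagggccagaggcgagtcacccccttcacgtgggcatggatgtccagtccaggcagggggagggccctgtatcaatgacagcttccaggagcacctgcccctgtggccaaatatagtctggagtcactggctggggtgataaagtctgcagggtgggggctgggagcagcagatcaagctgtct
The other Csrp3 window, chr7:48848002-48848301, lies at the annotated 5′ end of the gene and held none of the T-box letters. At Nebl they were in 1 of 4 windows. The T-box letters were in at least 1 promoter of 4 of the 12 genes matched among those 15 (Csrp3, Fitm1, Nebl, Unc45b), of 1 of 14 matched among the 15 highest in all Wnt2 cells and of 0 of 12 among the 15 lowest. They were in 13.7% of 32851 promoters and at 15.7% of 27025 genes. The Wnt2 window held none of the 4 motifs searched on both strands, the others being the Gli letters GACCACCCA (0.253% of promoters), the forkhead letters TGTTTAC (3.65%) and AGATAA, bound by zinc finger factors such as Gata6 (11.2%). No motif contains another. A match describes the letters of a window and does not show binding.

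Fitm1 itself was at 17.9 against 2.15 CPM in the Wnt2 cells with Foxf1, 8.31-fold higher (4.48 to 16.4), and Unc45b at 39.4 against 5.54 CPM, 7.11-fold higher (4.81 to 10.7). In the 58 cells with little sarcomere RNA they were 5.92-fold (2.06 to 19.2) and 3.09-fold (1.67 to 5.73) higher. Both stayed above 2 where Csrp3 did not.

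Of 16 regulators of cardiac progenitors tested in all Wnt2 cells, 10 were at least 2-fold higher and 0 lower, where 3.79% and 1.04% of all genes were. Their median log2 ratio was 1.495 against -0.01 over all genes tested. Hand1 was among the 10, and 177 of its 247 counts lay in the 2 cells described above. With Foxf1 it was 5 higher and 0 lower of 12, median 0.84, where 1.75% and 1.19% of all genes were. Mef2c, a MADS-box factor of muscle, was at 63.2 against 18.5 CPM in those cells (3.43, 2.69 to 4.38), and Tbx20, a cardiac T-box factor, at 18.3 against 5.998 CPM (3.05, 1.95 to 4.80). Gata5, a zinc finger factor of heart and gut mesoderm, was at 113 against 40.4 CPM (2.78, 2.34 to 3.30). Gata6 was at 169 against 97.8 CPM (1.73, 1.52 to 1.96) and did not reach 2-fold. Gata4 was at 84.7 against 80.4 CPM (1.05, 0.894 to 1.24).

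Among genes of the posterior field and venous pole, 8 of 23 were higher and 1 lower in all Wnt2 cells, and 6 and 1 of 21 in those with Foxf1, where 3.79% and 1.04% of all genes were in the first comparison and 1.75% and 1.19% in the second. Tbx5, the T-box factor of the inflow tract and of lung progenitors, was at 74.8 against 41.5 CPM in all Wnt2 cells (1.80, 1.54 to 2.12). It was at 85.9 CPM in those with Foxf1 (2.07, 1.72 to 2.48). Thinned, 52.2% of the latter (39.7 to 64.6%) had a Tbx5 UMI, 31.0% of the other Foxf1 cells (24.6 to 37.9%) and 2.63% of the Epcam-positive cells, against 86.6%, 45.1% and 7.5% unthinned. Smarcd3, a chromatin remodeller subunit of early cardiac mesoderm, was at 67.2 against 28.5 CPM (2.36, 1.91 to 2.93). Tbx18 was 3.38-fold higher in the Wnt2 cells with Foxf1 (2.32 to 4.95), but 2 of the 67 cells held 50% of its counts.

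Isl1, the LIM-homeobox gene of second heart field progenitors, separated the Wnt2 cells by Foxf1. It was at 57.6 CPM in all Wnt2 cells and 113 CPM in the other Foxf1 cells, a ratio of 0.510 (0.443 to 0.585). In the Wnt2 cells with Foxf1 it was at 105.4 CPM (0.932, 0.807 to 1.07), and in those with 0 or 1 Foxf1 UMI at 7.87 CPM. The median cell had 3 UMIs with Foxf1 and 0 without. The Foxf1 part of the Wnt2 cells therefore carried Isl1 at nearly the level summed over the other Foxf1 cells, and the rest had little of it. That summed level mixes other Foxf1 cells with Barx1, which had more Isl1, and those without Barx1, which had less. It need not be the level of either group. The ratios of all Wnt2 cells to each group are given below.

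Bmp4 was among the signalling genes at least 2-fold higher in the Wnt2 cells, though its ratio lay below 1 in the middle library alone. This ligand of the BMP pathway, which acts in heart and foregut mesoderm, was at 71.2 against 20.8 CPM in all Wnt2 cells (3.43, 2.80 to 4.21). In those with Foxf1 it was at 94.2 CPM (4.54, 3.66 to 5.65) and in the 58 at 86.4 against 18.7 CPM (4.62, 3.64 to 5.87). Its median was 3 UMIs per Wnt2 cell with Foxf1, with a highest of 15, and 0 per other Foxf1 cell, with a highest of 14, so both sets overlapped. Thinned, 52.2% of the former (39.7 to 64.6%) had a Bmp4 UMI, 15.2% of the latter (10.52 to 21.0%) and 9.21% of the Epcam-positive cells (unthinned 82.1%, 29.6% and 16.2%).

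In the Wnt2 cells with Foxf1 9 of 25 BMP and TGF-beta genes tested were at least 2-fold higher and 2 lower, with a median log2 ratio of 0.28, where 1.75% and 1.19% of all genes were. Tgfb2, a TGF-beta ligand, was at 107 against 37.5 CPM (2.86, 2.40 to 3.42). Bmp2, another BMP ligand, was at 12.3 against 4.15 CPM (2.97, 1.71 to 5.17), but 1 cell held 61.3% of its counts and the ratio without that cell was 1.17. Bmp6 was at 10.7 against 3.54 CPM (3.04, 1.68 to 5.54). Fst, which encodes the activin and BMP antagonist follistatin, was on the low side, at 6.76 against 20.3 CPM (0.333, 0.188 to 0.554).

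**Figure D4:**
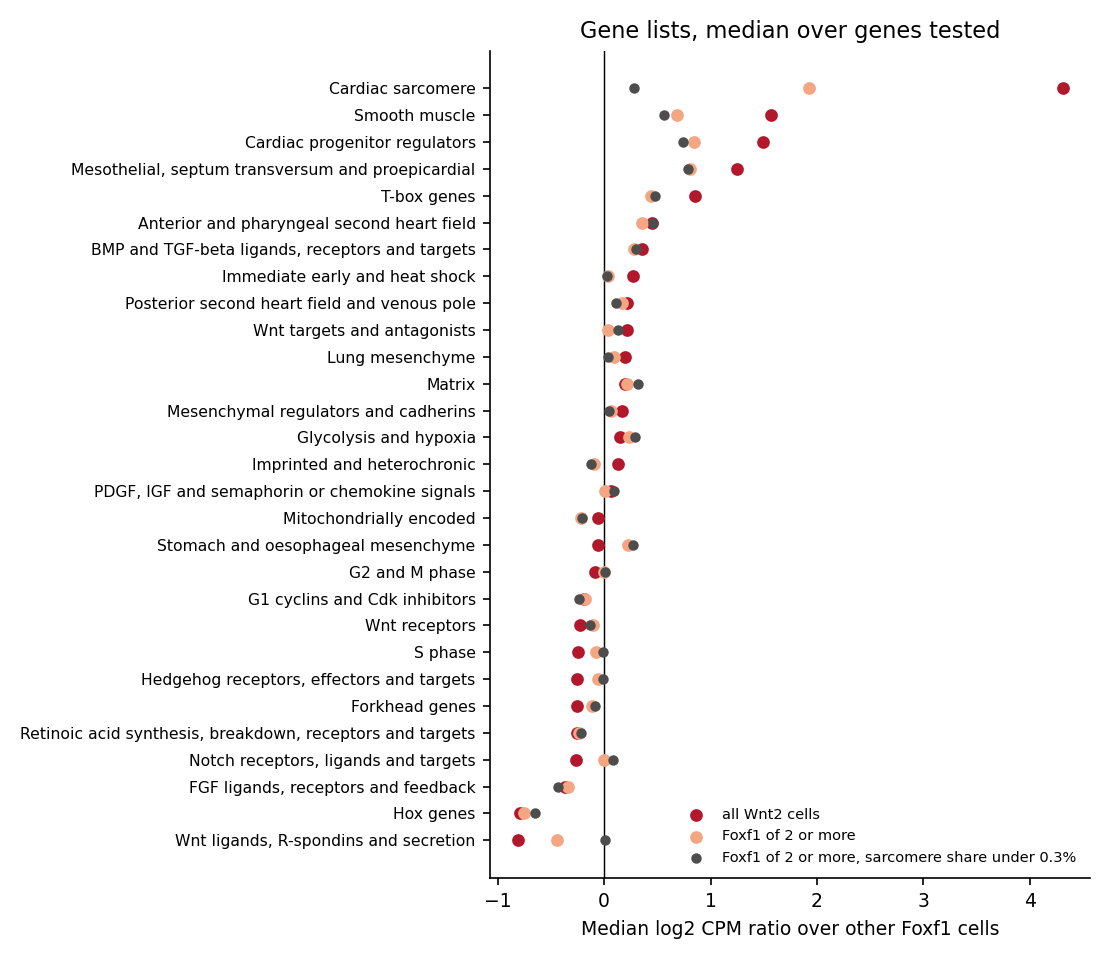
Median log2 CPM ratio over the tested members of each gene list, for all Wnt2 cells, those with 2 or more Foxf1 UMIs and those of them under 0.3% sarcomere transcripts. The cardiac sarcomere list moves from 4.31 to 1.92 and 0.28 across the 3 sets, and the Hox list lies below 0 throughout.

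Wnt genes other than the one that chose the cells were mixed. Of 7 ligand, R-spondin and secretion genes tested, 0 were higher and 2 lower in all Wnt2 cells (Wnt4 and Rspo3), where 3.79% and 1.04% of all genes were. With Foxf1, where 1.75% and 1.19% of all genes were, 1 was higher and 0 lower. That gene was Rspo2, a secreted enhancer of Wnt signals known from lung mesenchyme, at 17.5 against 5.69 CPM (3.07, 1.94 to 4.90). Wnt4, a ligand of gut and urogenital mesenchyme, was at 13.995 against 40.8 CPM in all Wnt2 cells (0.343, 0.260 to 0.449) and at 25.8 CPM in those with Foxf1 (0.634, 0.476 to 0.835). Wls, the carrier protein for Wnt secretion, was at 73.2 against 53.7 CPM (1.36, 1.13 to 1.63). Of the 11 receptors tested none was higher in all Wnt2 cells, and Lgr4, an R-spondin receptor, was lower at 6.69 against 15.2 CPM (0.440, 0.287 to 0.658).

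The usual readouts of canonical Wnt signalling did not stand apart by 2-fold. Axin2 was at 8.92 against 9.07 CPM in all Wnt2 cells (0.984, 0.650 to 1.48), and Lef1 at 21.9 against 17.99 CPM (1.22, 0.928 to 1.595). Their intervals hold 1 and would still allow ratios of up to 1.48 and 1.595. Of 15 targets and antagonists 2 were higher (Sfrp5, Myc) and 1 lower (Ccnd2) in all Wnt2 cells, where 3.79% and 1.04% of all genes were.

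Of 9 Hedgehog genes tested within the Wnt2 cells, 4 were at least 2-fold higher with Foxf1 than without and 1 was lower, where 1.32% and 3.22% of all genes were. Ptch1, the Hedgehog receptor and a target of the pathway, was at 84.4 against 160 CPM in all Wnt2 cells (0.529, 0.471 to 0.593) and at 138 CPM in those with Foxf1 (0.867, 0.766 to 0.980). Gli1, the transcriptional target most used as a readout, was at 12.6 against 23.8 CPM (0.528, 0.386 to 0.713) and 20.3 CPM (0.851, 0.607 to 1.17). Of the 13 Hedgehog genes tested in all Wnt2 cells 1 was at least 2-fold higher, the co-receptor Gas1 (1.94 without its highest cell), and 1 lower, the antagonist Hhip. In those with Foxf1 it was 0 and 0 of 12. The shares of all genes higher and lower were 3.79% and 1.04% for all Wnt2 cells, and 1.75% and 1.19% for those with Foxf1.

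In all Wnt2 cells 3 of 12 retinoic acid genes were at least 2-fold higher (Crabp1, Crabp2, Rarg) and 2 lower (Dhrs3, Rxra). Of 12 FGF genes 0 were higher and 3 lower (Fgf9, Fgf10, Etv1), and of 8 Notch genes 2 were higher (Jag1, Hey1) and 1 lower (Notch2). Over all genes 3.79% were higher and 1.04% lower, and 1.75% and 1.19% in the Wnt2 cells with Foxf1. Leaving out the highest cell of each gene took Rxra, Dhrs3 and Etv1 to 0.514, 0.534 and 0.508. In the Wnt2 cells with Foxf1 1 retinoic acid gene of 11 was higher and 1 lower, and the same 3 Notch genes of 8 were called, Hey1 at 1.90 without its highest cell. Aldh1a2, the enzyme that makes retinoic acid in mesoderm, was at 154 against 168 CPM in all Wnt2 cells (0.912, 0.830 to 1.00) and at 202 CPM in those with Foxf1 (1.20, 1.08 to 1.33). Crabp2, a binding protein that carries retinoic acid to the nucleus, was at 218 against 95.04 CPM in the latter (2.29, 2.04 to 2.57), and Dhrs3, which reduces retinaldehyde, at 3.58 against 10.0 CPM (0.358, 0.157 to 0.722). No FGF gene of 8 tested differed by 2-fold in these cells. In all Wnt2 cells Fgf9, a ligand of mesothelium and epithelium, was at 1.01 against 6.92 CPM (0.147, 0.0454 to 0.368). Fgf10, the ligand that drives lung budding, was at 4.67 against 10.1 CPM (0.460, 0.273 to 0.749), and Etv1, a transcription factor that FGF signals switch on, at 9.53 against 19.5 CPM (0.488, 0.342 to 0.687). Jag1, a Notch ligand, was at 41.4 against 13.1 CPM with Foxf1 (3.16, 2.35 to 4.26) and the receptor Notch2 at 9.15 against 27.2 CPM (0.336, 0.208 to 0.520).

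Among 12 lung mesenchyme genes, 1 was higher and 4 lower in all Wnt2 cells, and 3 higher (Tbx5, Rspo2, Bmp4) and 2 lower (Hoxa5, Hoxb5) in those with Foxf1, against 3.79% and 1.04% of all genes in the first comparison and 1.75% and 1.19% in the second. Tbx4, the T-box partner of Tbx5 in lung mesenchyme, had 1 count in each set. Wnt2b, the ligand that acts with Wnt2 in lung specification, was at 1.62 against 1.08 CPM (1.51, 0.478 to 4.88), too few counts to show a difference. Pdgfra, a PDGF receptor of mesenchyme, was at 60.8 against 54.3 CPM with Foxf1 (1.12, 0.921 to 1.36).

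Barx1 was set to 0 by the rule, and the other stomach-type markers lay on different sides of 1 by set. Nkx6-1, a homeobox gene of foregut mesenchyme, was at 9.74 against 13.4 CPM in all Wnt2 cells (0.728, 0.501 to 1.05) and at 19.1 CPM in those with Foxf1 (1.43, 0.981 to 2.05). Foxl1, a forkhead gene of gut mesenchyme, was at 11.8 against 13.99 CPM in all (0.841, 0.594 to 1.18) and at 21.1 CPM with Foxf1 (1.51, 1.05 to 2.14). Against the other Foxf1 cells without Barx1, both were at least 2-fold lower in all Wnt2 cells, with a median log2 ratio of -1.21. Sfrp1, a secreted Wnt antagonist, was at 259 against 210 CPM with Foxf1 (1.23, 1.12 to 1.36).

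In all Wnt2 cells 4 of 12 Hox genes tested were at least 2-fold lower and 0 higher (median log2 ratio -0.79), where 1.04% of all genes were lower. With Foxf1 it was 5 of 12 (-0.76), where 1.19% were, and the others did not reach 2-fold. Hoxb1, a retinoic acid target of the posterior second heart field, was at 42.9 against 102 CPM in the Wnt2 cells with Foxf1 (0.421, 0.340 to 0.517). Hoxa5, which patterns lung and foregut mesenchyme, was at 34.6 against 82.4 CPM (0.420, 0.331 to 0.527) and Hoxb5 at 9.94 against 25.1 CPM (0.397, 0.249 to 0.607). The median cell had 1 Hoxb1 UMI among Wnt2 cells with Foxf1 and 2 among the other Foxf1 cells, so the sets overlapped.

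Ccnd2, cyclin D2, had the most counts in the other Foxf1 cells of the 99 lower genes, 4863. It was at 17.5 UMIs in the median other Foxf1 cell and 4 in the median Wnt2 cell, with or without Foxf1, and the highest cells had 137 and 50. Its summed level was 748 CPM in the other Foxf1 cells and 205 CPM in the Wnt2 cells, 3.65-fold lower in the latter (ratio 0.274, 0.255 to 0.293), and 0.253 (0.230 to 0.278) in those with Foxf1. Other cell cycle genes differed little. None of the 22 S phase and 22 G2 and M phase genes tested differed by 2-fold, with medians of -0.24 and -0.09 in all Wnt2 cells. Top2a was at 268 against 283 CPM (0.947, 0.881 to 1.02). Cdk6, the kinase partner of D-type cyclins, was the other member of the G1 list at least 2-fold lower, at 24.1 against 49.2 CPM (0.490, 0.394 to 0.607, and 0.508 without its highest cell).

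Ifitm1, an interferon-induced membrane protein gene active in early mesoderm, was at 75.0 against 319 CPM in all Wnt2 cells (0.235, 0.210 to 0.263) and 97.0 CPM in those with Foxf1 (0.304, 0.265 to 0.347). The median cell had 3 UMIs among Wnt2 cells with Foxf1 and 7 among the other Foxf1 cells. Further low genes were Gdnf, a neurotrophic ligand of gut mesenchyme (2.64 against 15.2 CPM, 0.173, 0.0891 to 0.310), Meox1, a homeobox gene of somites (3.45 against 14.9 CPM, 0.231, 0.129 to 0.390), and the serum amyloid gene Saa1 (0.811 against 7.84 CPM, 0.103, 0.0272 to 0.281). In the Wnt2 cells with Foxf1 the matrix protein Ecm1 was at 1.99 against 19.1 CPM (0.104, 0.0333 to 0.250) and the neurotrophin Ntf3 at 2.39 against 11.1 CPM (0.215, 0.0765 to 0.492).

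The Wnt2 cells with and without Foxf1 differed from each other in many genes. Of 7631 genes tested, 101 (1.32%) were at least 2-fold higher and 246 (3.22%) lower in the 67 cells with Foxf1 than in the 71 with 0 or 1 UMI. Isl1 was at 105.4 against 7.87 CPM (13.4, 8.41 to 22.6), Ptch1 at 138 against 28.2 CPM (4.92, 3.78 to 6.47) and Gli1 at 20.3 against 4.55 CPM (4.45, 2.29 to 9.48). Wnt4 was at 25.8 against 1.66 CPM (15.6, 5.81 to 59.0). Isl1 is a gene of second heart field progenitors, and Ptch1 and Gli1 are Hedgehog targets.

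In the other direction, 3 of 11 mesothelial genes tested were at least 2-fold higher in the Wnt2 cells without Foxf1 and 0 in those with it, and 3 and 2 of 18 mesenchymal regulators, where 3.22% and 1.32% of all genes were. Prrx1, a homeobox gene of mesenchyme, was at 56.3 CPM there and 7.16 CPM with Foxf1, 7.87-fold higher (4.79 to 13.7). Tbx18 was at 79.5 and 27.0 CPM, 2.94-fold higher (2.22 to 3.94), and Wt1, a zinc finger gene of mesothelium, at 45.1 and 20.7 CPM, 2.18-fold higher (1.55 to 3.10). These differences were not smaller without the sarcomere cells: Prrx1 was then 10.8-fold (6.597 to 18.8) and Tbx18 3.65-fold (2.62 to 5.16) higher without Foxf1, and Isl1 17.7-fold higher with it (9.18 to 39.3). Across 135 thinned Wnt2 cells the rank correlation with Foxf1 was 0.565 for Ptch1, 0.515 for Isl1, 0.111 for Tbx5 and -0.315 for Tbx18, values that share each cell's library.

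Several ratios depended on which Foxf1 cells stood on the other side. Against the 113 with Barx1, 378 genes were higher (4.21% of 8980) and 79 lower (0.88%). Against the 93 without it, 388 were higher (4.47% of 8672) and 92 lower (1.06%). Of the genes lower, 21 were in both, which is 26.6% of the first group and 22.8% of the second. The comparisons share the 138 Wnt2 cells. Of the FGF genes, 0 of 9 tested were higher and 2 lower against the cells with Barx1. Against those without it, 2 of 7 were higher and 0 lower.

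Isl1 had a ratio of 0.336 (0.291 to 0.386) against the cells with Barx1 and 2.19 (1.68 to 2.89) against those without. Gata4 had 0.639 (0.558 to 0.731) and 6.01 (4.25 to 8.76), and Tbx5 2.88 (2.30 to 3.62) and 1.16 (0.964 to 1.40). Aldh1a2 went the other way, with 1.87 (1.64 to 2.14) and 0.518 (0.468 to 0.573). Cldn11, a claudin of mesenchyme, had 2.19 (1.39 to 3.53) and 0.112 (0.0861 to 0.144). Ifitm1 was low against both, with 0.175 (0.156 to 0.196) and 0.481 (0.416 to 0.555). For Isl1, Gata4 and Aldh1a2 the Wnt2 cells thus lay between the other Foxf1 cells with Barx1 and those without.

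Clustering of the 479 cells without the genes that chose the sets spread the Wnt2 cells over 6 of 8 clusters. Clusters are given by number, and their leading genes describe them without a test. Cluster 1 held 53 Wnt2 cells (38.4%), of which 42 had 0 or 1 Foxf1 UMI, and was led by Col1a1, Tbx18, Ahnak and Prrx1. Cluster 0 held 34, of which 29 had Foxf1, and was led by Aplnr, Ramp2, Vamp5 and Kdr, with Wnt5a and Bmp4 among its first 10. Cluster 6 held 30, of which 29 were at or above the 0.3% sarcomere line. All 9 cardiomyocyte markers were at least 2-fold higher in it than in the other cells, so it is called cardiomyocyte-like. Cluster 4 held 13, of which 12 had Foxf1, and was led by Nkx6-1, Wnt4 and Rspo2. Clusters 7 and 3 held 6 and 2, and clusters 2 and 5 none. Of the other marker lists, 4 of 6 mesothelial markers were at least 2-fold higher in cluster 1 (Wt1, Upk3b, Tbx18, Bnc1). In cluster 0, 5 of 9 endothelial markers were (Pecam1, Kdr, Egfl7, Esam, Plvap). The same held for 2 of 3 stomach-type markers (Nkx6-1, Foxl1) in clusters 4 and 7, and for 3 of 4 smooth muscle markers (Acta2, Tagln, Cnn1) in cluster 6. Clusters 0, 1, 4 and 7 were left without a name, since none had all markers of a list at least 2-fold higher.

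**Figure D5:**
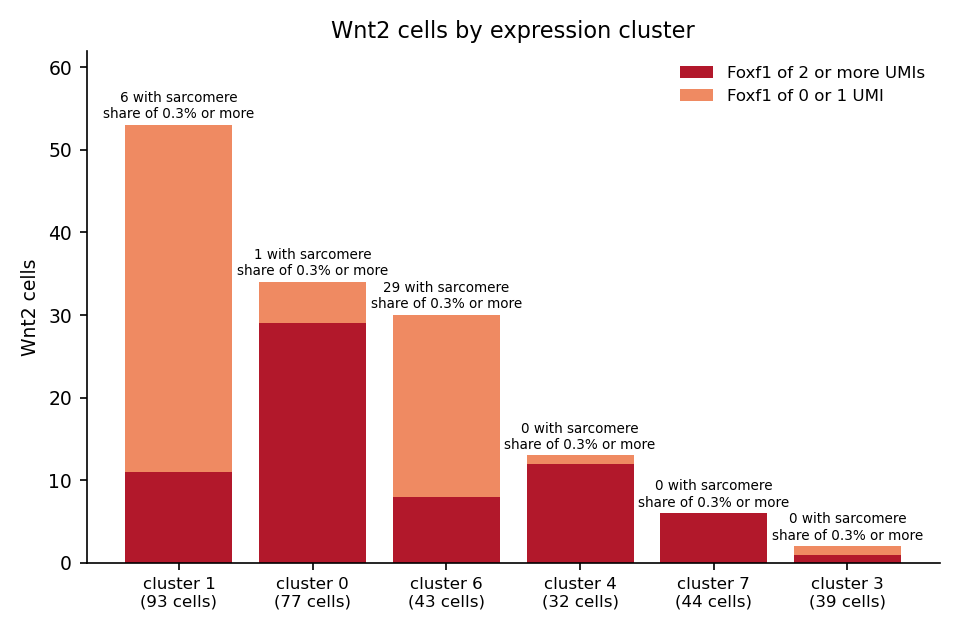
Number of Wnt2 cells in each cluster of the middle and posterior E9.5 cells, stacked by Foxf1 (2 or more UMIs, or 0 or 1), with the number at or above 0.3% sarcomere transcripts written beside each bar. Of the Wnt2 cells in clusters 1 and 6, 42 of 53 and 22 of 30 had 0 or 1 Foxf1 UMI, and in clusters 0 and 4, 29 of 34 and 12 of 13 had 2 or more.

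The Wnt2 cells of these clusters differed in several regulators. Wnt2, whose presence the rule set, was at 347 CPM in those of cluster 0, 247 in cluster 1, 335 in cluster 4 and 473 in cluster 6. Isl1 was at 145, 3.01, 138 and 36.5 CPM in the same order. Tbx18 was at 4.54, 117, 0 and 17.8 CPM, so it was carried by cluster 1. Nkx2-5 was at 144, 1.51, 15.6 and 594 CPM, so it was carried by clusters 6 and 0. Aldh1a2 was at 187, 145, 290 and 44.5 CPM, and Hoxb1 at 28.1, 41.7, 93.6 and 2.67 CPM.

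Tbx5 was less uneven, at 82.6, 33.7, 113 and 125 CPM in clusters 0, 1, 4 and 6, as was Gata6 at 230, 133, 99.4 and 199 CPM and Gata4 at 99.8, 60.8, 64.3 and 109 CPM. Sfrp5 was at 50.8, 152, 0 and 161 CPM. Ccnd2 was at 139, 288, 378 and 40.0 CPM, in every case below the 748 CPM of the other Foxf1 cells. The low Ccnd2 level was therefore common to all 4 clusters, and lowest in the cardiomyocyte-like one.

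The middle library held too few Wnt2 cells for most comparisons, 12 against 16 other Foxf1 cells, and none of the 12 was at or above the sarcomere line while 4 of the 16 were. In the posterior library alone 376 genes were higher (4.01% of 9382) and 97 lower (1.03%). In the middle library alone 23 were higher (1.11% of 2080) and 43 lower (2.07%). Acta2 was 30.5-fold higher in posterior Wnt2 cells (26.5 to 35.2) and at 0.247 (0.141 to 0.412) in middle ones. Nkx2-5 was at 11.6 (9.40 to 14.6) and 0.474 (0.214 to 0.972), the latter on 11 and 30 counts. Set against each other, posterior Wnt2 cells had 931 genes at least 2-fold higher than middle ones (12.2% of 7634) and 181 lower (2.37%).

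At E10.5 cells were shallower, with median depths of 5248 and 5407 UMIs, so Wnt2 cells were taken there with 1 or more Wnt2 UMIs and 0 Barx1 UMIs. This gave 127 of 891 middle and posterior cells (14.3%), 85 of them with a Foxf1 UMI (66.9%), against 505 other cells with 1 or more Foxf1 UMIs. The stages differ in depth and thresholds and are 1 sample each, so the ratios are given side by side with no comparison of their sizes. By the 2-fold rule 46 genes were higher (0.746% of 6169) and 87 lower (1.41%). All 5 erythroid markers tested at E10.5 were among the higher genes, where at E9.5 it was 0 of 3. The cause was not tested. Only 3 of the 127 cells were at or above 0.3% sarcomere transcripts.

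Several genes lay on the same side of 1 at E10.5. Tbx5 was at 71.9 against 39.9 CPM (1.80, 1.28 to 2.51), Gata5 at 48.4 against 17.2 CPM (2.82, 1.78 to 4.40), Bmp4 at 34.6 against 14.9 CPM (2.32, 1.36 to 3.85) and Rspo2 at 112 against 35.0 CPM (3.20, 2.37 to 4.31). Fitm1 was at 24.9 against 3.24 CPM (7.68, 3.36 to 18.6) and Atp1b1 at 33.2 against 8.76 CPM (3.79, 2.09 to 6.82). Ccnd2 was low again, at 332 against 688 CPM (0.483, 0.420 to 0.552), as was Ifitm1 at 30.4 against 240 CPM (0.127, 0.0791 to 0.194). Of the 15 genes named as lower in the Wnt2 cells with Foxf1, 13 had at least 20 counts at E10.5 and 10 of these were below 1. Of the 15 named as higher, 7 had 20 counts and 4 were above 1.

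Other E9.5 differences were not seen at E10.5. Acta2 was at 9.68 against 48.3 CPM (0.2003, 0.0792 to 0.423), and Hoxb1 at 13.8 against 15.6 CPM (0.888, 0.401 to 1.78). Nkx2-5 had 2 counts in the E10.5 Wnt2 cells and 9 in the others, and Sfrp5 3 and 6, too few to show a difference.

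Genes whose level was most like that of Wnt2 were ranked by Spearman correlation over 332 cells, the Wnt2 and other Foxf1 cells with at least 10000 UMIs, thinned to that depth, among 5509 genes. Since Wnt2 chose one of the sets, the ranking describes the same contrast. The 5 highest were Gyg, glycogenin (0.431), Arl4a, a small GTPase (0.416), Nkx2-5 (0.408), Ccdc141 (0.402) and Atp1b1 (0.393). Within the 135 Wnt2 cells alone the values were 0.345 for Arl4a, 0.327 for Nkx2-5, 0.257 for Atp1b1, 0.236 for Ccdc141 and 0.224 for Gyg. Arl4a was at 119 against 49.8 CPM in the Wnt2 cells with Foxf1 (2.39, 2.03 to 2.80) and at 87.1 against 39.2 CPM at E10.5 (2.22, 1.61 to 3.03). The lowest correlations were those of Ccnd2 (-0.570, and -0.227 within the Wnt2 cells), Barx1 (-0.434), Foxf1 (-0.428), Ifitm1 (-0.404) and Aprt (-0.384), of which Barx1 and Foxf1 were part of the choice.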

How the data were processed

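Single-cell RNA was counted as UMIs per gene and cell in 1 sample per stage. Cell Ranger 3.0, Seurat and the mm10 build are named in the submitters' processing notes. Neither the gene annotation used for counting nor the rule by which cells were chosen on Osr1 is stated in the labels. The authors deposited raw UMI counts, 1 matrix of 17492 genes at E9.5 and 1 of 17348 at E10.5, and the position of a cell came from its barcode suffix, per the labels.

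No cell was removed, and all columns were used. Counts were summed over the cells of a set and divided by the set's total (CPM). A gene was tested with at least 50 counts over both sets and a UMI in at least 10% of the cells of the higher set, and was counted as higher or lower at a ratio of at least 2 or at most 0.5. Wnt2, Barx1, Foxf1 and Osr1 were left out of such counts. Ratios have exact conditional Poisson 95% intervals (Clopper-Pearson, scipy 1.17.1). They were tested on simulated counts that were themselves Poisson, so the test does not cover the uneven spread between cells. UMIs from PCR reads are collapsed, but the intervals hold no variation between embryos. Shares and correlations used cells thinned to 10000 UMIs. Cells were clustered in scanpy 1.11.5 (2000 variable genes without the 4 choosing genes, mitochondrial and haemoglobin genes, 20 components, 15 neighbours, Leiden at resolution 0.6). Scrublet was run on each library. TMM factors came from edgeR 4.0.16. Symbols matched GENCODE on GRCm38 for 98.9% of genes.

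Named genes were the 15 highest and 15 lowest ratios that passed the 2-fold rule with 1 direction in each library of at least 5 cells per set and an interval without 1; up to 6 members of each list; a fixed set of 20 cardiopulmonary genes; and the 5 genes most and least like Wnt2. A few other genes, such as those that lead clusters, were named after their values were seen. The members and lists were chosen with earlier results of these data known. Alternatives changed thresholds, cells, libraries, scaling, depth and count minimums.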

Additional observations from a re-analysis of the deposited data

Results flagged for a closer look

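Ratios of 4 genes, Wnt2 cells over other Foxf1 cells, lay on opposite sides of 1 in 2 libraries or 2 stages. These differences were not tested, since there is 1 library or sample on each side. Acta2 was at 30.5 in the posterior and 0.247 in the middle library, and at 20.9 at E9.5 and 0.2003 at E10.5. Nkx2-5 was at 11.6 in the posterior and 0.474 in the middle library. Hoxa5 was at 0.442 in the posterior library and 9.04 in the middle one, the latter on 7 counts and 1 count. Myl9 was at 8.23 at E9.5 and 0.556 at E10.5. Of the Wnt2 cells, 36 of 126 posterior, 0 of 12 middle and 3 of 127 E10.5 cells were at or above 0.3% sarcomere transcripts; the part of these cells in the differences was not tested.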

How the results depend on the processing

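No paired analysis was possible because there is 1 sample per stage and the labels give no replicate numbers. In all, 66 genes were followed under 20 alternatives, 3 of them added after seeing the data, which gave 1306 ratios: 949 stayed on the same side of 2-fold or moved little, 326 moved and 31 crossed 1. The count of higher genes, 360, was 156 in Wnt2 cells with Foxf1, 160 with counts thinned to 10000 UMIs, 221 with 5 CPM added, 151 with a minimum of 200 counts, 178 without Epcam, Myh6 or endothelial cells, 23 in the middle library alone, 166 without cells at 0.3% sarcomere transcripts or more, and 111 with Foxf1 and without those cells. The count of lower genes, 99, was 62 with thresholds set after thinning, 53 with thinned counts, 31 with 5 CPM added, 29 with 200 counts and 43 in the middle library. The share of middle and posterior cells that are Wnt2 cells, 28.8%, was 34.4% from 2 Wnt2 UMIs, 22.96% from 5, 40.2% after thinning, 19.7% in the middle library and 23.9% without the sarcomere cells. Of 5 clusters with at least 5 Wnt2 cells, 3 were left at Leiden resolution 0.3.

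Ratios that crossed 1 were Slc2a3 at 0.751 with 5 or more Wnt2 UMIs, Ecm1 at 1.71, Ttr at 1.95 and 1110032F04Rik at 1.20 against cells without Barx1, Cd300e at 1.13 and Cldn11 at 2.19 against cells with it, and Tnni3 at 0.980 without Epcam, Myh6 or endothelial cells. In the middle library these were Slc2a3 0.431, Fitm1 0.185, Acta2 0.247, Unc45b 0.323, Nkx2-5 0.474, Ttn 0.258, Bmp4 0.592, C1ql1 1.29, Hoxa5 9.04 and Hoxb1 1.37, with Cryab, Rrad, Actc1 and Nebl at a ratio of 0 because the 12 Wnt2 cells had 0 counts. Without the sarcomere cells they were Tnni3 0.696, Tcea3 0.880 and Ttn 0.968, and with Foxf1 as well Tnni3 0.757, Cnn1 0.573, Kcna5 0.740, Tcea3 0.911, Csrp3 0.846, Actc1 0.802 and Cck 0. The causes were not tested, beyond the fewer cells and genes these settings leave. Depth limits genes near the minimum of 50 counts, and 1 sample per stage leaves no measure of variation between embryos.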

Other observations

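Mesothelial and septum transversum genes counted 6 of 12 at least 2-fold higher and 0 lower in all Wnt2 cells, with a median log2 ratio of 1.25, and 4 of 10 in those with Foxf1 (0.80). Over all genes 3.79% were higher in the first comparison and 1.75% in the second. The 4 were Tbx18, Sfrp5, Upk3b and Bnc1, and without the cell with most of their counts Upk3b was at 1.501 and Bnc1 at 1.69. Mab21l2, a gene of septum transversum and eye, was at 20.9 against 2.92 CPM in all Wnt2 cells (7.15, 4.35 to 12.4). Upk3b, a mesothelial membrane protein gene, was at 23.7 against 8.15 CPM (2.91, 2.09 to 4.11) and Krt19, a keratin of mesothelium and simple epithelia, at 11.8 against 3.38 CPM (3.48, 2.10 to 5.97).

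Of 28 genes of growth factor and guidance signals tested, 4 were higher and 3 lower in all Wnt2 cells, where 3.79% and 1.04% of all genes were. Igfbp5, which binds insulin-like growth factors, was at 276 against 68.6 CPM (4.02, 3.61 to 4.49), at 174 CPM with Foxf1 (2.53, 2.22 to 2.90) and at 245 against 116 CPM at E10.5 (2.11, 1.76 to 2.54). Nrp2, a semaphorin and VEGF co-receptor, was at 27.6 against 8.30 CPM (3.32, 2.41 to 4.64). Sema3a, a secreted semaphorin, was at 19.1 against 6.77 CPM (2.82, 1.95 to 4.13). Glycolysis and hypoxia genes counted 5 of 22 higher and 0 lower, where 3.79% and 1.04% of all genes were. One of the 5 was Slc2a3, with 63.6% of its counts in 1 cell and a ratio of 3.53 without it. Others were the glucose transporter Slc2a1 at 161 against 55.8 CPM (2.88, 2.54 to 3.28) and Pfkp, a phosphofructokinase, at 14.4 against 1.23 CPM (11.7, 5.63 to 28.2). Of the Slc2a1 counts in the Wnt2 cells 1 cell held 20.8%, and the Slc2a1 ratio without that cell was 2.31. The 2 posterior Wnt2 cells with the most Hand1 had 165 and 128 Slc2a1 UMIs. All 13 mitochondrially encoded genes were within 2-fold.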
